A study of Rattus norvegicus with 12 samples.

Results

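Splicing genes were followed in the mesenteric lymph nodes (MLN) of suckling rats supplemented with conjugated linoleic acid (CLA). They comprised every gene whose platform symbol starts with Srsf, Hnrnp, Sf3a, Sf3b, Snrp, Prpf, U2af, Tra2, Srrm or Rbm, or with an older form of these, and the kinases Clk1 to Clk4. On the array 108 such genes were measured, of 14217 genes with 1 symbol. They were read by 183 probe sets, and a further 11 probe sets that carry several symbols were counted and not used. For each gene the brightest probe set stood for the gene. By role the 108 genes comprised 17 hnRNPs, 20 SR proteins and their partners, 12 proteins of the U2 and branch site step, 10 proteins of the small nuclear ribonucleoproteins (snRNPs), 11 Prp factors and 38 Rbm genes. One of the SR entries, Srsf7-ps4, has the symbol of a pseudogene. On their brightest probe set 103 were above background on all 12 arrays and 5 on some, where background means the 95th percentile, on each array, of 27 probe sets whose spike RNA was left out.

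Wistar pups were studied at day 21, with 3 pups in each of 4 groups and 1 Affymetrix rat genome array per pup. In group A the dams ate a 1% CLA diet in the last 2 weeks of gestation and through suckling, so the pups received CLA by milk for 3 weeks. In group B the dams ate the 1% CLA diet in gestation, and the pups received CLA by daily oral gavage for the 3 weeks of suckling. In group C the dams ate a standard diet and the pups received CLA by gavage in suckling alone, and in group D all were on the standard diet without CLA. The CLA was an 80:20 mix of the c9,t11 and t10,c12 isomers. The 3 pups of a group were drawn at random from 10, and their litters are not given in the sources used here, so p-values measure the spread between these pups, which may be less than that between litters.

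Pre-mRNA splicing removes introns from new transcripts. The U1 snRNP pairs with the start of the intron, the U2 snRNP with its branch site, and a larger particle built with the Prp factors carries out the cuts. SR proteins bind exons and mostly favour their inclusion, hnRNPs coat the transcript and often oppose them, and the Clk kinases phosphorylate SR proteins. Many SR proteins and hnRNPs tune their own transcripts through exons that lead to decay of the RNA. In lymphocytes, alternative splicing sets forms of surface receptors such as CD45.

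Values were normalized log2 intensities, made from the deposited array intensities by giving all arrays 1 distribution. Groups were compared with limma over all probe sets, two-sided, and a gene was called higher or lower at an adjusted p under 0.05. With 3 pups against 3 the smallest exact permutation p is 0.1, and limma's p-values use a spread pooled across probe sets.

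One pup stood apart before any comparison. Group D replicate 3 correlated across probe sets at 0.931 and 0.93 on average with the arrays of groups B and C, and at 0.896 with the other arrays of its own group. In 28 of the 108 splicing genes (25.9%) group D replicates 1 and 2 both lay below all 6 arrays of groups B and C while replicate 3 did not, against 10.2% of all genes. In 20 genes (18.5%) replicates 1 and 2 both lay above those arrays and replicate 3 did not, against 22.7% of all genes. Among the SR proteins and partners the first pattern held in 10 of 20 genes. The label of this array could not be checked here, so each comparison with group D rests on that label being right. The summed level of 8 smooth muscle markers was 2410 to 2690 in group A pups. It was 1650 to 1950 with CLA diet and gavage (group B), 1550 to 1740 with gavage alone (group C) and 1850 to 10500 in group D, where replicate 3 was the lowest. The 6 neutrophil markers measured summed to 389 to 559 in group A, against 118 to 151 and 133 to 273 in groups B and C and 112 to 175 in group D. Group A lay above the other groups in the sum of the neutrophil markers. The hexokinase 3′/5′ ratio, a sign of RNA quality, was 2.84 to 4.96 in group A, against 1.62 to 3.24 and 1.82 to 2.62 in groups B and C and 1.84 to 2.53 in group D. The same ratio for actin did not set group A apart, with 1.37 to 1.79 there while the other arrays spanned 1.3 to 1.91. For Gapdh it ran from 1.21 to 1.53 in group A, and the other arrays spanned 1.06 to 1.28. The defining markers of a lymph node were present: of 8 T cell markers and of 5 B cell markers measured none was below background on all arrays. The T cell markers summed to 7860 to 9930 in group A, against 7070 to 8230 and 8040 to 8870 in groups B and C and 7460 to 8690 in group D. Of the 8 T cell markers only Il7r was called in group A against group D (log2 difference -1.38, adjusted p = 0.0174). Against groups B and C Il7r differed by -2.39 (adjusted p = 8.85e-05), while 2 of the markers were higher in group A. Il7r had 6.73, 7.01 and 8.54 in group D, where replicate 3 lay among groups B and C. The B cell sums were lowest in group D, at 2210 to 2590, and lay between 2730 and 3280 on the other arrays. The part of these marker and quality differences in the results below was not tested. In whole tissue, fewer cells of a type and less RNA per cell cannot be told apart.

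**Figure D1:**
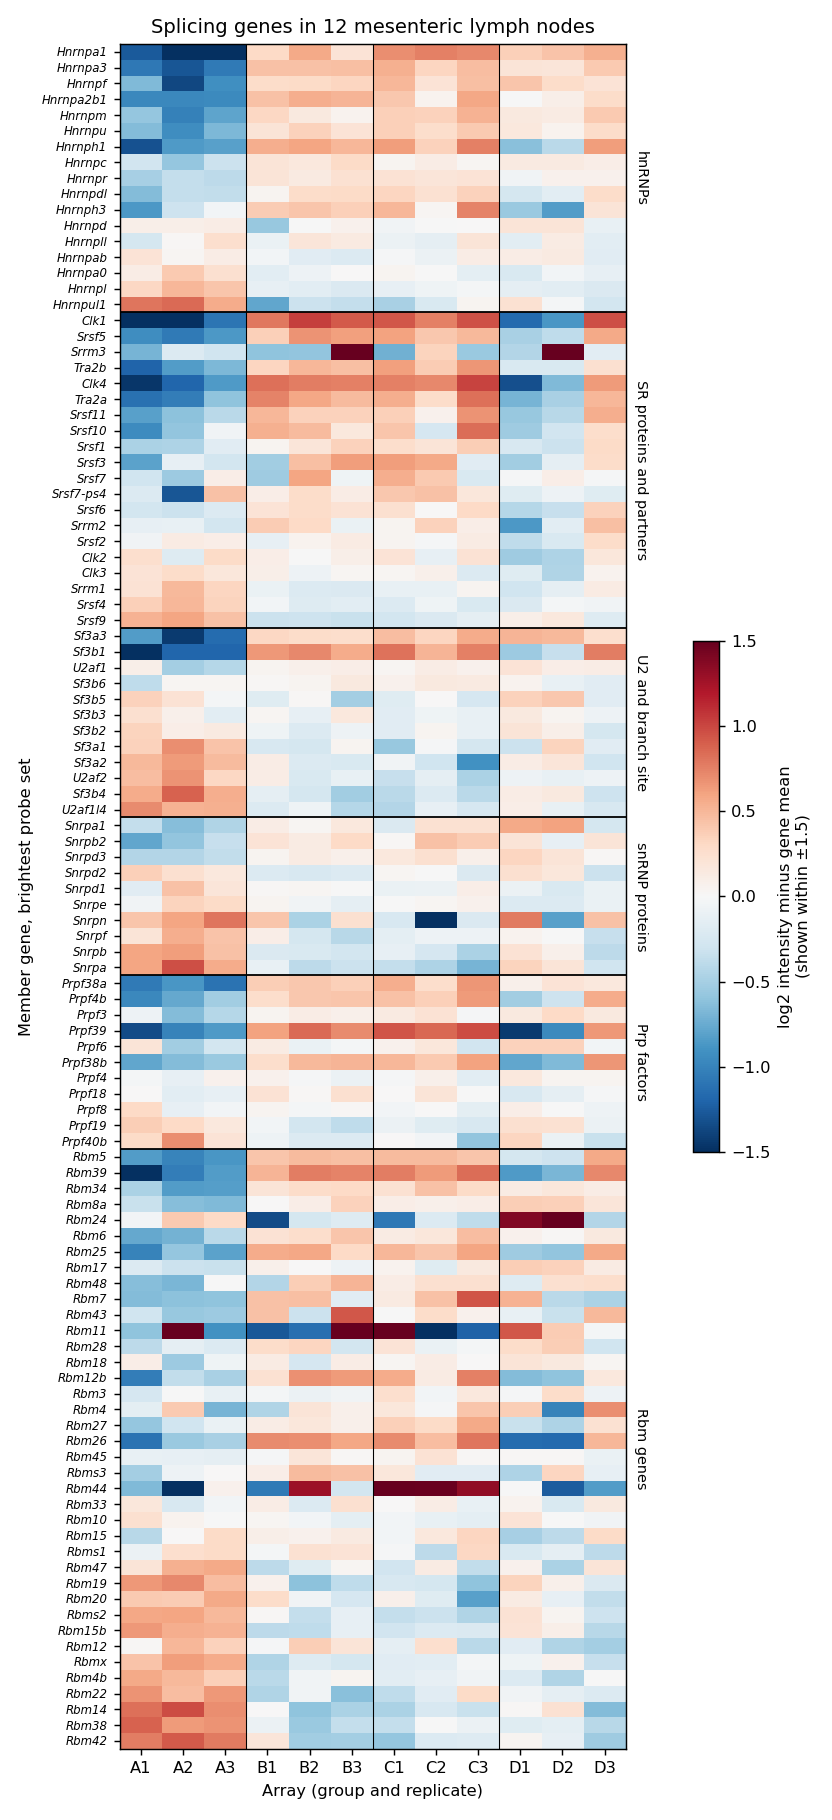
Normalized log2 intensity of each of the 108 splicing genes on its brightest probe set, minus the gene's mean over the 12 arrays. Rows are grouped by role and ordered within a role by the difference of group A minus group D, and columns are the arrays of groups A, B, C and D. Group D replicate 3 resembles groups B and C in many rows where the other arrays of group D resemble group A, such as Clk1, Clk4, Prpf39 and Rbm26.

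The first comparison asked how splicing genes stood after CLA by the dam's diet and milk (group A) against no CLA (group D). In group A 22 of 108 genes were higher and 24 were lower. The share higher (20.4%) stood beside 16.0% of all genes, and the share lower (22.2%) beside 12.0%. The median log2 difference was -0.11 over the splicing genes and 0.15 over all genes. At a fold of at least 2, 8 splicing genes were lower and 1 was higher, against 5.56% and 2.63% of all genes. Among hnRNPs 9 of 17 were lower and 3 higher (median -0.44), and among Rbm genes 5 of 38 were lower and 9 higher (median -0.10). Of the SR proteins and partners 2 were lower and 3 higher, of the U2 and branch site proteins 3 and 3, of the snRNP proteins 3 and 4, and of the Prp factors 2 and 0. The deposited values without further normalization gave 2 higher and 16 lower, against 22 and 24, with hnRNPs at 0 higher and 6 lower. Rbm genes stood at 2 higher and 4 lower there, so that the balance of the Rbm genes turned with the scaling. On those values the median was -0.02 over all genes and -0.21 over the splicing genes, and the shares of all genes were not counted. The counts fell to 13 higher and 19 lower without group A replicate 2, which had the highest hexokinase 3′/5′ ratio (4.96). For that fit the share of all genes was not counted. Without group D replicate 3 the counts were 22 higher and 25 lower, beside 14.6% and 13.4% of all genes.

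**Figure D2:**
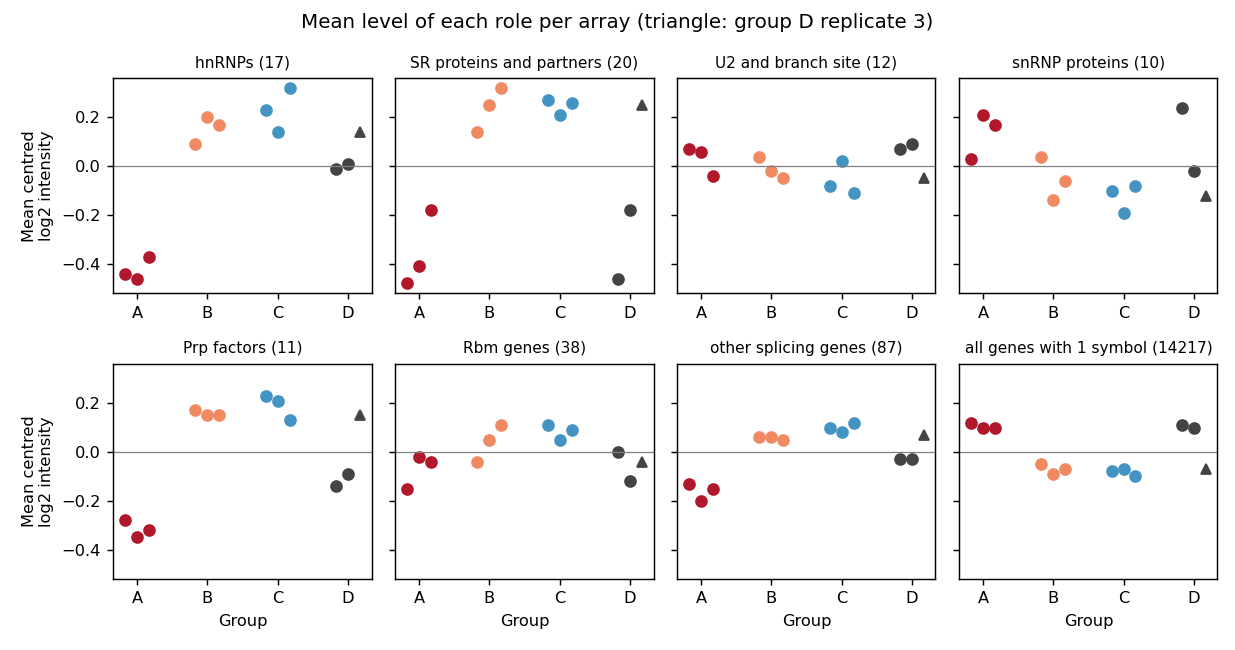
Mean of the centred log2 intensities of each role in each array, with the number of genes in brackets; circles are arrays and the triangle is group D replicate 3. The hnRNP mean lies between -0.46 and -0.37 in group A, between 0.09 and 0.32 in groups B and C and between -0.01 and 0.14 in group D.

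Of the 8 genes lower by at least 2-fold in group A 5 were hnRNPs. Hnrnpa1, a core protein of hnRNP particles that favours exon skipping, was measured at 8.82, 8.37 and 8.48 in group A, at 10.38, 10.64 and 10.28 in group B, at 10.78, 10.83 and 10.80 with gavage alone (group C), against 10.43, 10.51 and 10.61 in group D. All 3 arrays of group A lay below the other 9, and group D replicate 3 did not stand apart on this probe set. Hnrnpa1 fell in group A against group D (log2 difference -1.96, standard error 0.13, 3.89-fold, adjusted p = 1.94e-06). Its other probe sets were lower as well, by -0.85 and -0.65 (adjusted p = 0.0247 and 0.0331), and without group D replicate 3 by -0.46 and -0.64 (adjusted p = 0.0086 and 0.0529). Hnrnpa1 and its relatives have many near-identical copies in mammalian genomes, and a probe set may read these too.

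Hnrnpa3, a close relative of Hnrnpa1, was at 9.70, 9.49 and 9.71 in group A, at 11.21, 11.21 and 11.22 in group B, at 11.30, 11.10 and 11.24 with gavage alone (group C), against 10.97, 10.95 and 11.17 in group D. The groups A and D did not overlap, and the log2 difference was -1.40 (standard error 0.10, adjusted p = 3.58e-06). All 5 probe sets of Hnrnpa3 were lower in group A, with log2 differences from -3.16 to -0.77. Hnrnpa2b1, which also binds RNA sorted to exosomes and dendrites, had 9.18, 9.19 and 9.20 in group A against 10.15, 10.24 and 10.43 in group D (log2 difference -1.08, adjusted p = 0.000112). Of its other 3 probe sets 1 passed (-2.82, adjusted p = 5.3e-06), and the rest did not (-0.43 and -0.77, adjusted p = 0.661 and 0.114). Without group D replicate 3 the first of these was at 0.46 (adjusted p = 0.231). Hnrnpf, which binds runs of G, had 9.12, 8.41 and 8.86 in group A against 10.19, 10.06 and 9.99 in group D (log2 difference -1.28, adjusted p = 0.000131). On the brightest probe set of each of these genes every array of group A was below every array of group D.

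Hnrnpm fell by 1.01 and Hnrnpu, which also anchors chromatin in the nucleus, fell by 0.91 on the log2 scale (adjusted p = 0.000211 and 9.97e-05), though on the mean of its probe sets Hnrnpu was at -0.69 and did not pass (adjusted p = 0.0614). Hnrnph1, a G-run binder like Hnrnpf, was lower by a log2 difference of -0.86 (adjusted p = 0.0333), and here group D itself was split, with 9.01, 9.47 and 9.5 in group A against 9.69, 9.92 and 10.95 in group D. Without group D replicate 3 the difference was -0.47 (adjusted p = 0.0489). Smaller falls were measured for Hnrnpc, which binds U-rich tracts (-0.52, adjusted p = 0.00248), and Hnrnpr (-0.44, adjusted p = 0.00366). The hnRNPs that rose were Hnrnpul1, a relative of Hnrnpu (0.77, adjusted p = 0.0104), Hnrnpl, a binder of CA repeats (0.57, adjusted p = 0.000623), and Hnrnpa0 (0.38, adjusted p = 0.0212). Hnrnpab and Hnrnpd differed by 0.09 and 0.01 and did not pass (adjusted p = 0.637 and 0.972).

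Promoters are shown for genes that fell in group A (Hnrnpa1 and Hnrnpa3), for the gene with the largest difference between group A and groups B and C (Clk1) and for the largest rise against group D (Rbm42). Each covers 300 bases around the gene start, most of them before it, from RefSeq on assembly GRCr8, and is written 5′ to 3′ along the gene. Capitals mark matches on either strand to the CCAAT box (CCAAT), the GC box (GGGCGG), the ETS site (CCGGAA), the cyclic AMP element (TGACGTCA) or the TATA box (TATAAA).
Hnrnpa1 promoter, chr7:136253868-136254167, plus strand: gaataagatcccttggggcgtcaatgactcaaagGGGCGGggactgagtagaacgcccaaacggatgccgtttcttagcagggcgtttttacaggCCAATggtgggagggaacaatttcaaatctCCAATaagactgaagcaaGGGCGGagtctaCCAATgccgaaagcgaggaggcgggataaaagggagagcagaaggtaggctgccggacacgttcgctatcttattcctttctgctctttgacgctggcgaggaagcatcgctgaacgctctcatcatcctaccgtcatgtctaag
Hnrnpa3 promoter, chr3:80985684-80985983, plus strand: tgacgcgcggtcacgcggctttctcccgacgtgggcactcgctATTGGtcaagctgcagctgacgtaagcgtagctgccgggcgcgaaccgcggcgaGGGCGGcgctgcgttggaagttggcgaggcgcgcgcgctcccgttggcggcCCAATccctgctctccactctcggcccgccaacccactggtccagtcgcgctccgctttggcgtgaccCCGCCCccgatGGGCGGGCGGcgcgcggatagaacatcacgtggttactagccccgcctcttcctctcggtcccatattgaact
Clk1 promoter, chr9:67453131-67453430, minus strand: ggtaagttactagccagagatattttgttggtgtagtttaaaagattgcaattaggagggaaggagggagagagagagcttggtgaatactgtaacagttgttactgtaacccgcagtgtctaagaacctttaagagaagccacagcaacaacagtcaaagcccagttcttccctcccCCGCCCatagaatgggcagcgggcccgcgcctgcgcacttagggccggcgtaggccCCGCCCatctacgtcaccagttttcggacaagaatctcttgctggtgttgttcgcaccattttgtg
Rbm42 promoter, chr1:95035931-95036230, minus strand: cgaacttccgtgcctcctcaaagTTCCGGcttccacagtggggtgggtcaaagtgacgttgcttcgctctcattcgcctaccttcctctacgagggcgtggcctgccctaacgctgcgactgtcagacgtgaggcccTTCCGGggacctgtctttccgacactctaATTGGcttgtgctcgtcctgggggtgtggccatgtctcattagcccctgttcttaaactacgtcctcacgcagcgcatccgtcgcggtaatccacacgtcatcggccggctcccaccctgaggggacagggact
The Hnrnpa1 promoter holds 3 CCAAT boxes and 2 GC boxes and the Hnrnpa3 promoter 2 and 4, while that of Clk1 holds 2 GC boxes and that of Rbm42 holds 2 ETS sites and 1 CCAAT box. None of the 4 has the TATA box letters in this window.

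A promoter was matched for 95 of the 108 genes. Among them 42.1% hold the ETS letters, against 15.8% of all 27457 promoters of the same length in that table. The CCAAT letters are in 49.5% against 37.7%, the GC box letters in 54.7% against 34.9%, the cyclic AMP element in 2.11% against 1.91% and the TATA letters in 7.37% against 14.3%. Of the genes lower in group A than in group D, 24 had a promoter, and 14 of these hold CCAAT and 10 the ETS letters. Of the genes higher in group A, 19 had one, and 11 hold CCAAT and 5 the ETS letters. These matches are a description of the letters and were not tested.

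Among SR proteins and their partners the calls of group A against group D ran both ways. Srsf5, an SR protein, had 9.14, 9 and 9.21 in group A against 9.58, 9.69 and 10.64 in group D (log2 difference -0.85, adjusted p = 0.015). Without group D replicate 3 the difference was -0.52 (adjusted p = 0.00713). The fall was not called without group A replicate 2 (adjusted p = 0.0611) or in a fit of groups A and D alone (adjusted p = 0.0984). Tra2b, which binds GAA-rich exon enhancers, had 8.73, 9.10 and 9.26 in group A against 9.71, 9.71 and 10.17 in group D (log2 difference -0.83, adjusted p = 0.00267). Its second probe set differed by -1.37 (adjusted p = 1.57e-05). In both genes the groups did not overlap, and replicate 3 was the highest array of group D.

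Srsf9 was higher in group A, with 8.97, 9.04 and 8.88 against 8.53, 8.60 and 8.25 in group D (log2 difference 0.50, adjusted p = 0.00619). Srsf4 rose by 0.49 (adjusted p = 0.00408), and Srrm1, a coactivator that bridges SR proteins and snRNPs, by 0.44 (adjusted p = 0.0205). The rises of Srsf9 and Srsf4 were not called on the deposited values (adjusted p = 0.24 and 0.183). On their brightest probe sets Srsf1, the founding SR protein, Srsf2 and Srsf6 did not pass, with log2 differences of -0.28, 0.17 and -0.12 (adjusted p = 0.242, 0.487 and 0.674). Srsf10 and Srsf11 did not pass either (-0.35 and -0.46, adjusted p = 0.473 and 0.227). Of the 3 probe sets of Srsf6, 1 was called lower, and the log2 differences of the 3 ran from -1.02 to -0.12. Srsf7 was read by a dim probe set of 3.62 to 4.75 over all arrays and did not pass (-0.26, adjusted p = 0.695). The 1 probe set with the symbol of Srsf3 alone was dim as well, at 3.74 to 5.17, and did not pass (-0.27, adjusted p = 0.693). A brighter probe set lists Srsf3 beside another symbol and was not used, so these values do not show the level of Srsf3 or whether it differed.

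Clk1 and Clk4, kinases of SR proteins, showed the split of group D. Clk1 had 7.88, 8.13 and 8.52 in group A, 10.41, 10.66 and 10.54 in group B, 10.55, 10.38 and 10.57 with gavage alone (group C), against 8.45, 8.75 and 10.58 in group D. Its replicates 1 and 2 of group D lay near group A, and replicate 3 lay among groups B and C. The difference of group A from group D was -1.09 and did not pass (standard error 0.40, adjusted p = 0.0758), and without group D replicate 3 it was -0.43 (adjusted p = 0.0864). Clk4 had 6.06, 6.33 and 6.67 in group A, 8.35, 8.29 and 8.28 in group B, 8.28, 8.24 and 8.54 with gavage alone (group C), against 6.20, 6.86 and 8.16 in group D. Groups A and D overlapped for Clk4, and its difference was -0.72 (adjusted p = 0.188). Tra2a, the second transformer homologue, differed by -0.69 on its brightest probe set and did not pass (adjusted p = 0.0842). Its second probe set differed by -1.82 and was called lower. Clk2 and Clk3 differed by 0.40 and 0.41 (adjusted p = 0.181 and 0.0571), and without group D replicate 3 both were higher in group A, by 0.62 and 0.54 (adjusted p = 0.0129 and 0.00856).

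**Figure D3:**
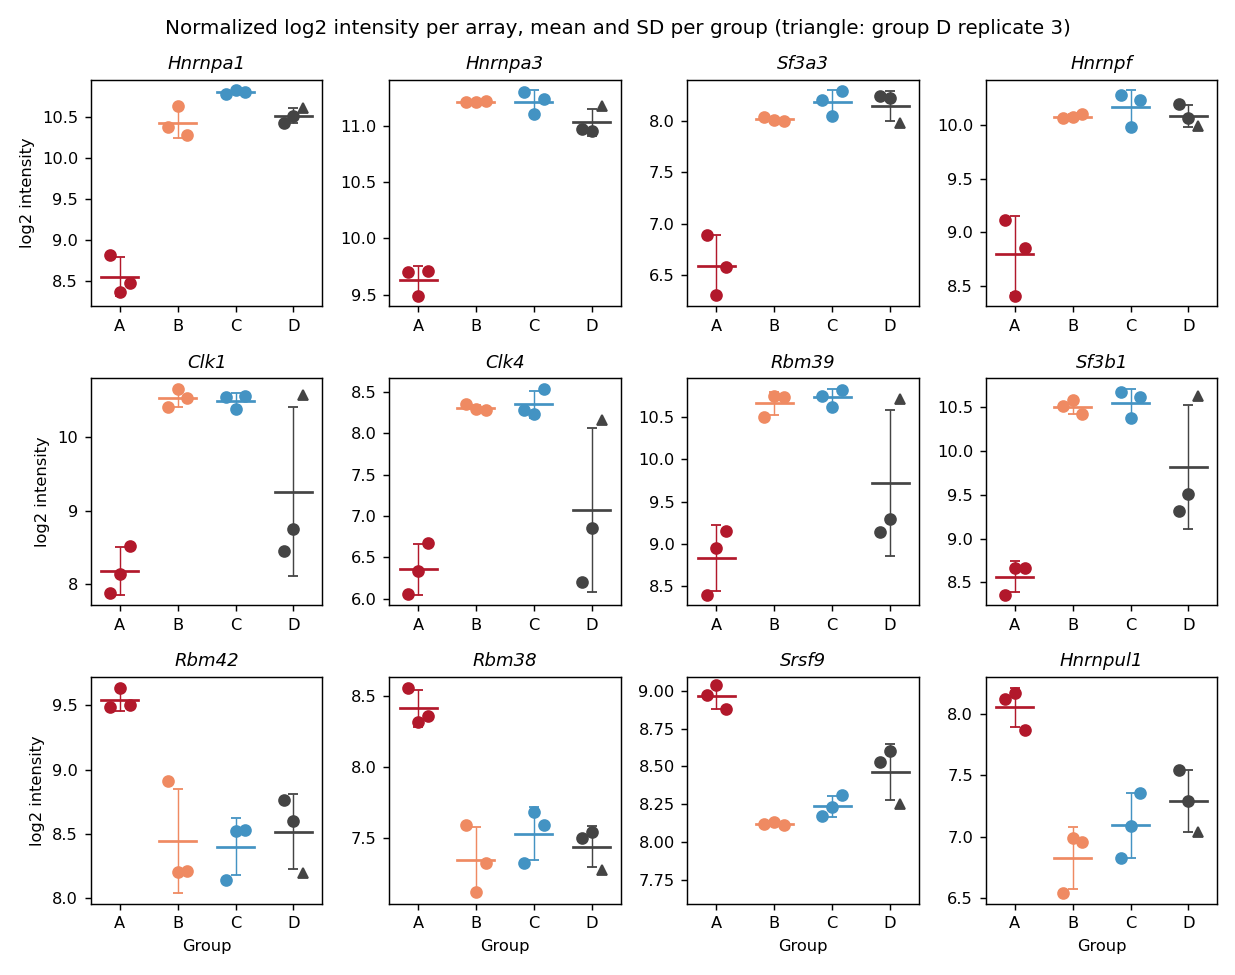
Normalized log2 intensity of 12 splicing genes in each array by group, with the group mean as a line and the SD as a bar (n = 3). The top row (Hnrnpa1, Hnrnpa3, Sf3a3, Hnrnpf) has group A below all other arrays; the middle row (Clk1, Clk4, Rbm39, Sf3b1) has group D replicate 3, the triangle, beside groups B and C and its replicates 1 and 2 lower; the bottom row (Rbm42, Rbm38, Srsf9, Hnrnpul1) has group A above all other arrays.

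At the branch site step the subunits did not move together. Sf3a3, a subunit of the SF3A complex, had 6.89, 6.30 and 6.58 in group A against 8.24, 8.22 and 7.98 in group D. All arrays of group A lay below the other groups, and the fall was 2.94-fold (log2 difference -1.55, standard error 0.15, adjusted p = 2.39e-05). The other subunits of the same complex, Sf3a1 and Sf3a2, had log2 differences of 0.54 each that did not pass (adjusted p = 0.0749 and 0.0859). Sf3b1, which holds the branch site and is the target of splicing inhibitors, had 8.36, 8.67 and 8.67 in group A, against 9.31, 9.51 and 10.63 in group D. It fell by 1.25 on the log2 scale (adjusted p = 0.00444), and by 0.84 without group D replicate 3 (adjusted p = 0.000568), but the fall was not called in a fit of groups A and D alone (adjusted p = 0.0589).

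Sf3b4, another SF3B subunit, was higher in group A by 0.67 (adjusted p = 0.00769), while Sf3b2, Sf3b3, Sf3b5 and Sf3b6 lay within 0.18, 0.02, -0.02 and -0.03 and did not pass (adjusted p = 0.365, 0.949, 0.96 and 0.913). U2af2, which binds the pyrimidine tract before the exon, had 9.60, 9.81 and 9.45 in group A against 9.06, 9.03 and 9.07 in group D (log2 difference 0.57, adjusted p = 0.00771). On the mean of its 3 probe sets U2af2 differed by 0.11 and did not pass (adjusted p = 0.802). U2af1l4, a relative of its partner U2af1, rose by 0.68 (adjusted p = 0.00891). U2af1 itself, which reads the AG at the end of the intron, was lower by a log2 difference of -0.42 (adjusted p = 0.0404), a call lost in 10 of the 12 fits that left out 1 array, with an adjusted p of up to 0.168.

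The snRNP proteins were divided. Snrpa, a U1 protein, had 7.82, 8.20 and 7.78 in group A against 7.56, 7.42 and 6.93 in group D (log2 difference 0.63, adjusted p = 0.0269), but without group D replicate 3 the difference was 0.45 and did not pass (adjusted p = 0.0625). The Sm core proteins Snrpb, Snrpf and Snrpe were higher by 0.59, 0.48 and 0.36 (adjusted p = 0.013, 0.0371 and 0.0342), and of these Snrpf did not pass without group D replicate 3 (0.35, adjusted p = 0.0994), while the Sm core protein Snrpd3 was lower by a log2 difference of -0.59 (adjusted p = 0.00112). The U2 proteins Snrpa1 and Snrpb2 were lower by -0.78 and -0.66 (adjusted p = 0.0188 and 0.00833). Of the Prp factors, Prpf38a, a factor needed for spliceosome activation, had 6.35, 6.54 and 6.30 in group A against 7.48, 7.62 and 7.57 in group D (log2 difference -1.16, adjusted p = 7.95e-05). Prpf3, of the U4/U6 particle, was lower by -0.58 (adjusted p = 0.0129). Prpf8, the protein at the core of the spliceosome, lay at 9.08 to 9.53 in all arrays and differed by 0.04 (adjusted p = 0.871).

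Rbm genes carry an RNA recognition motif and have varied roles. Rbm42 had 9.49, 9.64 and 9.5 in group A, 8.91, 8.20 and 8.21 in group B, 8.14, 8.52 and 8.53 with gavage alone (group C), against 8.76, 8.60 and 8.19 in group D. Every array of group A lay above the other 9, and the rise against group D was 2.04-fold (log2 difference 1.03, standard error 0.20, adjusted p = 0.00295). Rbm38, a p53 target that binds and stabilises transcripts, had 8.56, 8.32 and 8.36 in group A against 7.5, 7.54 and 7.27 in group D (log2 difference 0.98, adjusted p = 0.000656). Rbm14, a paraspeckle coactivator, rose by 0.97 (adjusted p = 0.00579). Rbm22, which contacts the catalytic RNA of the spliceosome, rose by 0.73 (adjusted p = 0.0133), Rbm4b by 0.69 (adjusted p = 0.00892), Rbmx by 0.66 (adjusted p = 0.00482) and Rbm12 by 0.65 (adjusted p = 0.0413). On the deposited values Rbm42 and Rbm38 (adjusted p = 0.0347 and 0.0299) were the only splicing genes called higher in group A than in group D. The adjusted p was 0.0541 for Rbm14, 0.104 for Hnrnpul1, 0.139 for Sf3b4 and 0.291 for U2af1l4 there. The call of Rbm12 was lost in 7 of the 12 fits that left out 1 array.

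Rbm5, a regulator of the splicing of apoptosis genes, had 8.84, 8.69 and 8.80 in group A, 10.09, 10.15 and 10.13 in group B, 10.15, 10.15 and 10.10 with gavage alone (group C), against 9.42, 9.37 and 10.25 in group D. It was lower in group A than in group D by a log2 difference of -0.91 (adjusted p = 0.00369), and by -0.62 without group D replicate 3 (adjusted p = 0.000284). Its other probe sets differed by -0.55 and 0.91 (adjusted p = 0.537 and 0.194), and the mean of all 3 by -0.18 (adjusted p = 0.768). Rbm8a, a core protein of the exon junction complex, was lower by -0.85 on its brightest probe set (adjusted p = 0.000431). Its second probe set differed by 0.59 and did not pass. Also lower were Rbm34 (-0.85, adjusted p = 0.00109), Rbm6 (-0.71, adjusted p = 0.00436) and Rbm17, which takes part in the choice of the end of the intron (-0.56, adjusted p = 0.00388). Rbm3, a cold-induced protein, lay at 10.85 to 11.38 in all arrays and did not pass (-0.19, adjusted p = 0.317).

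**Figure D4:**
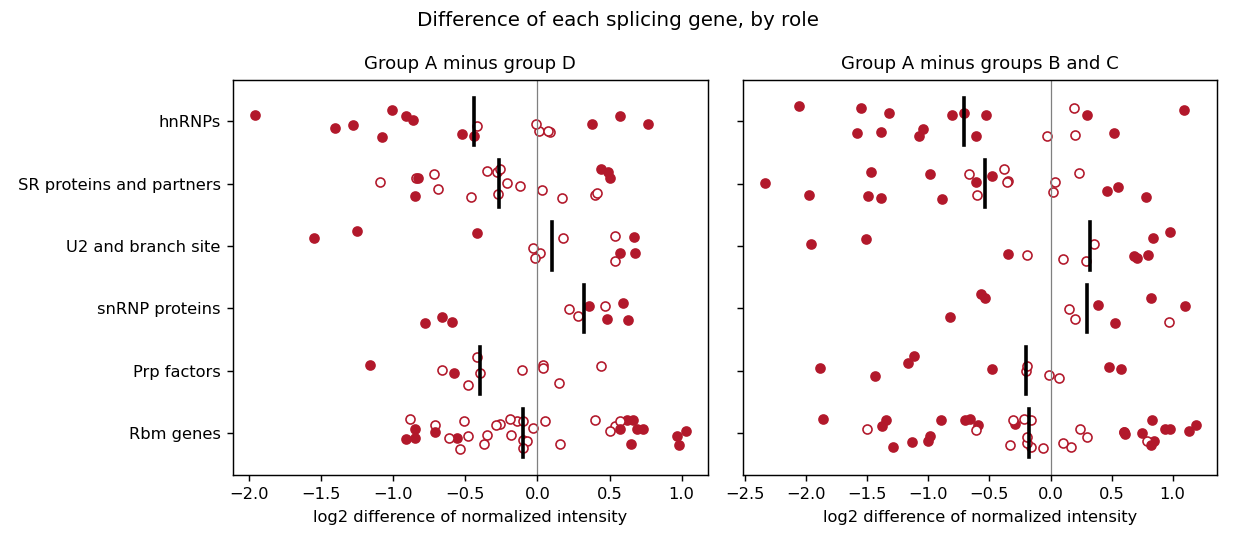
Log2 difference of each of the 108 splicing genes, as group A minus group D and as group A minus groups B and C, by role. Filled points passed at an adjusted p under 0.05, open points did not, and the black bar is the median of the role, which for hnRNPs is -0.44 against group D and -0.71 against groups B and C.

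The next comparison set CLA by milk (group A) against CLA by gavage (groups B and C), and did not involve group D. Group C also lacked the CLA diet of the dam in gestation. Gavaged pups were separated from the dam before each dose, and a gavage without CLA is not described for groups A and D. The route, the gavage itself and, for group C, the CLA in gestation cannot be told apart here. In group A 27 splicing genes were higher (25%, beside 31.6% of all genes) and 43 were lower (39.8%, beside 16.9%). The median log2 difference was -0.20 over the splicing genes and 0.32 over all genes. At a fold of at least 2, 23 were lower and 4 were higher, against 8.30% and 10.7% of all genes. At an unadjusted p under 0.05, 30 were higher and 45 lower, beside 36.7% and 19.1%, and without group D replicate 3, which enters only the estimate of the spread, 29 and 43 passed, beside 35.2% and 18.3%. Of the hnRNPs 11 of 17 were lower and 3 higher, of the SR proteins and partners 9 of 20 were lower and 3 higher, and of the Prp factors 5 of 11 were lower and 2 higher. Of the U2 and branch site proteins 3 were lower and 5 higher, of the snRNP proteins 3 and 4, and of the Rbm genes 12 and 10. The split depended on the scaling. It was 39 higher and 20 lower on the deposited values, where the median of all genes was itself 0.73 and that of the splicing genes 0.29, and it was 36 and 38 with centring on the 75th percentile. On the deposited values 5 SR proteins and partners were lower and 5 higher, and 4 hnRNPs were lower and 5 higher.

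Clk1 had the largest fall in this comparison, 5.07-fold (log2 difference -2.34, standard error 0.35, adjusted p = 0.000205), and its values in group A, given above, lay below all arrays of groups B and C. Clk4 fell by 1.98 (adjusted p = 0.000297), Sf3b1 by 1.96 (adjusted p = 3.24e-05) and Hnrnpa1 by 2.06 (adjusted p = 1.59e-07). Rbm39, a cofactor related to U2af2, had 8.40, 8.95 and 9.15 in group A, against 10.50, 10.75 and 10.73 in group B, with 10.75, 10.62 and 10.82 in group C (log2 difference -1.86, adjusted p = 0.000225). In group D it had 9.14, 9.30 and 10.71, and again replicate 3 lay among the gavaged groups. Prpf39, a U1-associated factor, had 6.91, 7.25 and 7.41 in group A, against 8.86, 9.10 and 8.96 in group B, with 9.20, 9.12 and 9.23 in group C (log2 difference -1.89, adjusted p = 0.000603).

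Hnrnph1 fell by 1.55 (adjusted p = 0.000172) and Tra2a by 1.49 (adjusted p = 0.000246). The SR protein Srsf5 fell by 1.47 (adjusted p = 7.75e-05), Tra2b by 1.39 (adjusted p = 1.01e-05), Srsf11 by 0.99 (adjusted p = 0.00257) and Srsf1 by 0.61 (adjusted p = 0.00316). On the deposited values Srsf1 differed by 0.09, so its direction turned with the scaling, and the fall of Srsf11 was not called (-0.33, adjusted p = 0.292). The largest rises were those of Rbm14 (1.19, adjusted p = 0.000251), Rbm42 (1.13, adjusted p = 0.000253), Snrpa (1.10, adjusted p = 0.000166) and Hnrnpul1 (1.09, adjusted p = 0.000177).

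Several genes were read by more than 1 probe set, which can lie on different transcript forms. Of the 43 such genes none had probe sets that passed in opposite directions in any of the 5 comparisons, though in 17 the signs of the differences of group A from group D were mixed. In 4 genes all probe sets passed one way in group A against group D, and in 16 in group A against groups B and C. These counts were not made over all genes. On the brightest probe set 16.0% of all genes were higher and 12.0% lower in group A against group D. Against groups B and C these shares were 31.6% and 16.9%. Sizes differed within a gene. For Hnrnpu the brightest probe set differed from groups B and C by -1.04, the second by -0.20 (adjusted p = 0.247) and the third by -3.15 (adjusted p = 0.00126). The third had 5.42, 5.62 and 5.89 in group A, 8.69, 8.89 and 8.70 in group B, 8.71, 8.81 and 8.95 with gavage alone (group C), against 5.11, 5.69 and 9.03 in group D. On this probe set replicates 1 and 2 of group D lay with group A and replicate 3 with the gavaged groups, a split that the brightest probe set of the same gene (10.80, 10.69 and 10.92 in group D) did not have. For Sf3b1 the dimmest probe set had 3.59, 3.88 and 4.91 in group A, 8, 8.45 and 8.05 in group B, 8.05, 7.85 and 8.56 with gavage alone (group C), against 4.90, 4.89 and 8.30 in group D.

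**Figure D5:**
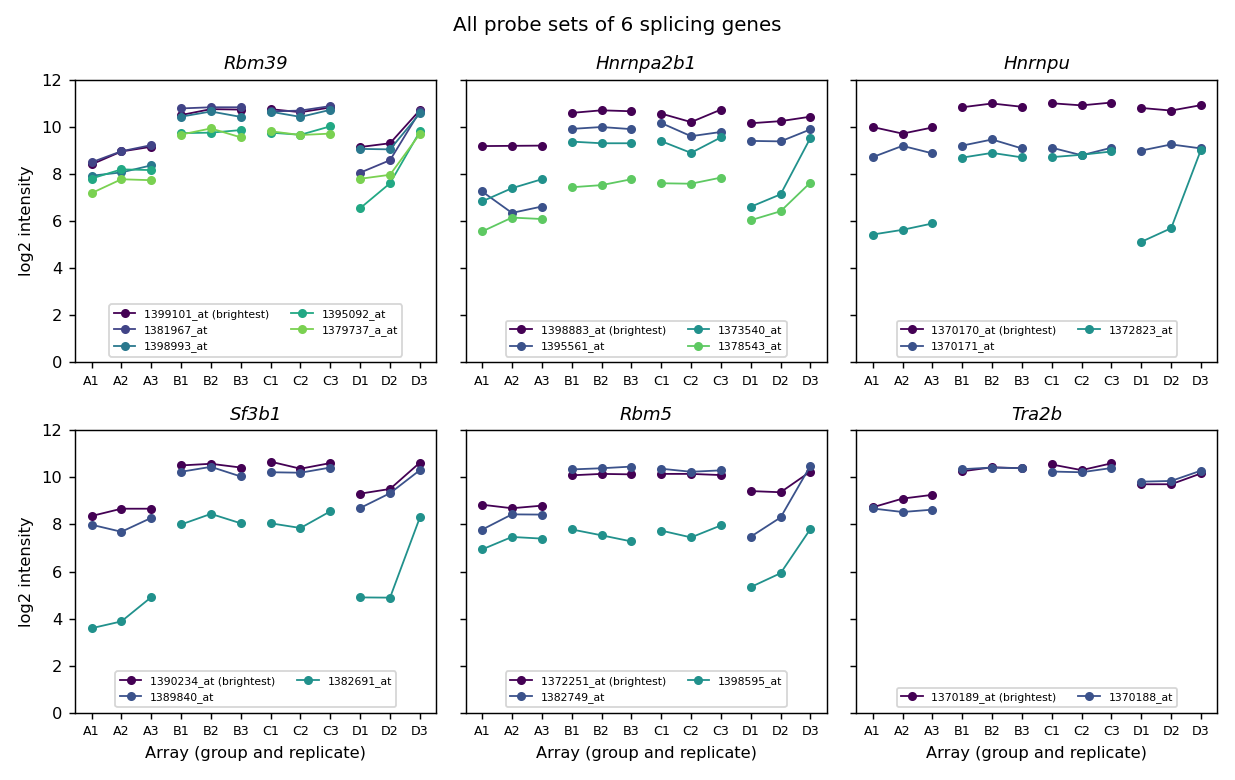
Normalized log2 intensity of every probe set of 6 splicing genes in each array, with arrays of groups A, B, C and D from left to right and 1 line colour per probe set. The dimmest probe set of Hnrnpu lies at 5.11 and 5.69 in group D replicates 1 and 2 and at 9.03 in replicate 3, while its brightest probe set lies at 10.69 to 10.92 in all 3.

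The remaining comparisons asked about the gavaged groups. Against group D, the CLA and the gavage itself cannot be told apart. Against group D no splicing gene passed in group B or in group C. Among all genes 0.00703% were called higher and 0.0141% lower in group B, and 0.00703% higher and 0.0352% lower in group C. Both comparisons share the arrays of group D. At an unadjusted p under 0.05, 21 splicing genes were higher and 6 lower in group B, beside 6.47% and 10.5% of all genes. In group C 22 were higher and 5 lower, beside 7.42% and 12.2%. On the deposited values 33 splicing genes were lower in group C, where the median of all genes was -0.80 and that of the splicing genes -0.63. The smallest p-values in group B belonged to Rbm26, a partner of RNA decay complexes, at a log2 difference of 1.28 (adjusted p = 0.196), Clk4 at 1.23 (adjusted p = 0.21), Prpf39 at 1.30 (adjusted p = 0.21), Rbm12b at 0.88 (adjusted p = 0.211) and Clk1 at 1.28 (adjusted p = 0.211). In group C they belonged to Prpf39 at 1.51 (adjusted p = 0.145), Tra2b at 0.63 (adjusted p = 0.146), Rbm26 at 1.27 (adjusted p = 0.162), Clk4 at 1.28 (adjusted p = 0.162) and Rbm12b at 0.84 (adjusted p = 0.174). None of these passed.

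These counts turned on group D replicate 3. Without it 25 splicing genes were higher and 12 lower in group B, beside 7.15% and 12.8% of all genes, and 25 were higher and 10 lower in group C, beside 8.04% and 15.0%. Leaving it out was chosen after the values were seen. SR proteins and partners then stood at 10 higher and 1 lower of 20 in group B, with 11 and 1 in group C. The snRNP proteins stood at 0 higher and 4 lower of 10 in group B, with 0 and 3 in group C. Clk1 was then higher by 1.93 (group B) and 1.89 (group C) (adjusted p = 2.31e-05 and 2.41e-05), and Rbm26 by 1.83 and 1.82 (adjusted p = 2.99e-05 and 2.83e-05). Rbm26 had 10.28, 10.26 and 10.15 in group B, with 10.28, 10.03 and 10.37 with gavage alone (group C), against 8.41, 8.40 and 10.06 in group D. Srsf5 was higher by 0.98 and 0.93 (adjusted p = 0.00015 and 0.000189), and Srsf9 was lower by -0.45 and -0.33 (adjusted p = 0.00487 and 0.023). The 2 arrays of group D left in that fit are also those with the high smooth muscle markers, and the part of that difference was not tested.

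Between group B and group C, which differ in the CLA diet of the dam in gestation, no splicing gene and none of the 14217 genes passed in limma (0% of all genes). At an unadjusted p under 0.05, 0 splicing genes were higher and 2 were lower in group B, beside 1.96% and 1.93% of all genes. The smallest p-values were those of Hnrnpa1, at 10.38, 10.64 and 10.28 in group B against 10.78, 10.83 and 10.80 in group C (log2 difference -0.37, unadjusted p = 0.013 in limma, adjusted p = 1), and Rbm44 (-1.5, unadjusted p = 0.0459 in limma, adjusted p = 1), whose signal was near the background. Rbms3, U2af2 and Hnrnpm differed by 0.40, 0.24 and -0.24 (adjusted p = 1 for each).

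Splicing genes outside the named families, such as the Lsm proteins, helicases and cyclophilins of the spliceosome, were counted from a fixed list. Of 87 measured, 15 were higher (17.2%, beside 16.0% of all genes) and 19 lower (21.8%, beside 12.0%) in group A than in group D. Against groups B and C 27 were higher (31%, beside 31.6%) and 32 lower (36.8%, beside 16.9%). None passed in group B or group C against group D. Without group D replicate 3 these were 16 higher and 9 lower in group B, beside 7.15% and 12.8% of all genes, with 18 higher and 10 lower in group C, beside 8.04% and 15.0%. Ik, a factor of the spliceosome, had 7.14, 6.06 and 6.59 in group A against 8.84, 8.89 and 9 in group D (log2 difference -2.31, adjusted p = 1.32e-05). Slu7, a factor of the last splicing step, differed by -2.07 (adjusted p = 0.000404). Lsm5, a ring protein that binds the end of U6 RNA, was higher in group A by 0.86 (adjusted p = 0.0029), and so was Lsm2 (0.73, adjusted p = 0.0272), which did not pass once group D replicate 3 was left out (0.51, adjusted p = 0.0667). Ik, Slu7, Lsm5 and Lsm2 were chosen as examples after their values were seen.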

How the data were processed

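MLN RNA of 12 pups was hybridised to 1 array each. The deposited values were computed by the authors in MAS5. These are linear signal intensities with array medians of 19.3 to 38.5, and whether they were scaled between arrays was not checked. The 30 zeros took the smallest positive value. The log2 intensities of the 31099 deposited probe sets were quantile normalized over all arrays, values under an intensity of 1 were raised to 1, and 57 control probe sets were left out. limma 3.58.1 in R 4.3.3 fitted 1 mean per group over all 12 arrays with a trend of the variance, with Benjamini-Hochberg adjustment over 31042 probe sets in each of 5 comparisons. Symbols were updated by gene number against GRCr8. The study's methods name a p under 0.05 and a 2-fold filter but no test. The code was tested on simulated data.

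Members, lists, the main setting and the rule for named genes were chosen with earlier results of these data known. The rule names, in each comparison, up to 10 rises and 10 falls among genes that passed and did not overlap between groups, the 5 smallest p where fewer than 5 passed, the core SR, Clk, Tra2, U2af and SF3 genes, and Rbm5. Other genes are given as examples of their role. Alternatives were other scalings, a floor of 32, leaving out the dimmest 40%, no variance trend and fits of only the groups compared. Further ones were the methods' thresholds on an unadjusted p, an adjusted p with 2-fold, the mean of all probe sets of a gene, a replicate block, and leaving out each array. The number of arrays limits the precision.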

Additional observations from a re-analysis of the deposited data

Results flagged for a closer look

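The change in group A differed from that in groups B and C, by the limma test of group A against groups B and C at an adjusted p under 0.05, in 42 of the 54 named splicing genes. Many of the 54 were named for their size in this same contrast, so the count is a description; over all 108 splicing genes 27 were higher and 43 lower. The log2 difference of group A minus groups B and C was below 0 in 25 of them. These were Clk1 -2.34, Hnrnpa1 -2.06, Clk4 -1.98, Sf3b1 -1.96, Prpf39 -1.89, Rbm39 -1.86, Hnrnpa3 -1.58, Hnrnph1 -1.55, Sf3a3 -1.51, Tra2a -1.49, Srsf5 -1.47, Prpf38a -1.44, Hnrnpa2b1 -1.39, Tra2b -1.39, Rbm26 -1.38, Rbm5 -1.35, Hnrnpf -1.32, Rbm12b -1.13, Hnrnpm -1.08, Hnrnpu -1.04, Srsf11 -0.99, Srsf10 -0.89, Srsf1 -0.61, Srsf6 -0.48 and U2af1 -0.35. It was above 0 in 17, namely Rbm14 1.19, Rbm42 1.13, Snrpa 1.10, Hnrnpul1 1.09, Rbm38 0.98, Sf3b4 0.98, Rbm19 0.94, Rbm15b 0.85, U2af1l4 0.84, Rbm22 0.83, Sf3a2 0.80, Srsf9 0.78, Rbmx 0.75, Sf3a1 0.71, U2af2 0.68, Rbm4b 0.60 and Srsf4 0.55. The differences of Srsf1, Srsf6 and U2af1 turned sign on the deposited values; of all genes, 31.6% were higher and 16.9% lower in this contrast. Groups of 3 arrays were not tested for single arrays that lie far from the rest.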

How the results depend on the processing

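Without further normalization (values as deposited) 2 splicing genes were higher in group A than in group D. On these values 33 were lower in group C than in group D, and 20 were lower in group A than in groups B and C. Srsf1, Srsf6 and U2af1 reversed in the last comparison to 0.09, 0.24 and 0.34. No variance trend gave 14 higher in group A than in group D, and a fit of only groups A and D gave 12. The thresholds of the study's methods (p under 0.05 and 2-fold) were put here on an unadjusted p without moderation and on quantile normalized values. The methods do not say whether p was adjusted, and their normalization was to the control group. This filter gave 1 higher and 8 lower in group A against group D, 4 and 1 for B, 6 and 1 for C, and 4 and 24 in group A against groups B and C. An adjusted p with a fold of 2 gave 1 and 8 in group A against group D and 4 and 23 against groups B and C. Shares of all genes were counted for this filter and without group D replicate 3, and not for the other alternatives given here. Leaving out 1 array at a time gave 13 to 22 higher and 19 to 28 lower in group A against group D, 0 to 25 and 0 to 12 in group B, 0 to 25 and 0 to 10 in group C, while it gave 23 to 29 and 36 to 43 for A against the gavaged groups. It gave 0 in group B against group C. Among these fits every count above 0 in groups B and C against group D came without group D replicate 3. The median log2 difference of the splicing genes on the deposited values against group D was -0.21 for A, -0.59 for B and -0.63 for C, and 0.29 for A against both gavaged groups, and with 75th percentile centring it was -0.06 for B. The cause was not tested, except that adding a fold of 2 to the adjusted p keeps fewer genes by construction. The replicate numbers did not pair the samples (correlations of deviations from -0.02 to 0.08), and a replicate block gave 24 higher and 29 lower in group A against group D and 28 and 44 against groups B and C. Of 59 results for named genes, all 59 kept their call with the block and without the dimmest 40%, 57 with a floor of 32, 54 with 75th percentile centring, 53 with a fit of only the groups compared, with the mean of all probe sets and with 1 array left out, 54 without the variance trend, 42 on the deposited values and 26 under each 2-fold filter. The dim probe sets of Srsf7 and Rbm44 limit what can be seen there, and for Srsf3 the limit comes from leaving out probe sets with several symbols.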
